A study of Brachypodium distachyon with 6 samples.

Results

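The most abundant transcripts of *B. distachyon* roots were taken as all genes with at least 500 RPM (reads of a gene per 1000000 counted reads of its library) in each of 6 root libraries. This rule gave 183 of 19538 genes, or 0.937% of the table. The libraries came from roots of the grass *Brachypodium distachyon*, inbred line Bd21, with 3 libraries of pruned plants and 3 libraries of intact plants. Seedlings of both groups shared sterile boxes of Murashige and Skoog agar medium with sucrose, and the labels give no transgene or mutation for either group. At 2 weeks of age the shoots of the pruned plants were cut with scissors to a short stub, and the intact plants of the same boxes were left uncut as the control. Root RNA was isolated 2 days later, at 1 time point.

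A small set of genes takes a large part of the reads of most plant RNA libraries, and such genes commonly serve protein synthesis, primary metabolism, transport, the cell wall and defence. Roots receive sugar that leaves send down as sucrose, so the cut removed part of the tissue that feeds them, while the medium of both groups also held sucrose. In bulk RNA a lower share of a transcript can mean less RNA per cell or fewer cells that make it, and these cannot be told apart here. RPM sum to the same total in every library, so a fall of the most abundant genes is matched by a rise elsewhere by construction. RPM were not divided by transcript length, and each rank below is a rank of reads and not of RNA molecules.

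The 3 pruned libraries held 17278649, 28420464 and 26518230 counted reads, and the 3 intact libraries 21292543, 18790356 and 18150223. The fewest reads of any member in a library were 8644, for which the counting error is 1.08%, so the values are limited by the spread between libraries and not by depth. Pruned replicates 2 and 3 were mapped from the first read of each pair only, and the other 4 libraries from both reads. The identifiers matched no gene description at hand, so the root label could not be checked against marker genes, and an annotation was at hand for only 9 of the 183 members.

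The 183 members held slightly less of the reads in pruned roots than in intact roots. Their share of all RPM was 21.3%, 21.4% and 21.2% in the 3 pruned libraries, against 21.9%, 22.4% and 21.7% in the 3 intact libraries. The means were 21.3 ± 0.136% in pruned roots and 22.0 ± 0.366% in intact roots (SD, n = 3 each), a difference of -0.735 percentage points. The groups did not overlap, but the lowest intact library lay close to the highest pruned library. The members were chosen on these same libraries, so the share carries no test.

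The small net difference was the remainder of 2 larger movements in opposite directions. The 94 members with a higher mean in pruned roots gained 26137 RPM together, and the 89 members with a lower mean together fell by 33486 RPM. The share of the 94 members was 12.7 ± 0.0897% in pruned roots and 10.1 ± 0.287% in intact roots, and that of the 89 members was 8.57 ± 0.0471% in pruned roots and 11.9 ± 0.0807% in intact roots (SD, n = 3 each). These sets were formed by the direction of the difference, so their separation is a description. Among the other 19355 genes, the 10048 with a mean of 10 to 100 RPM held more of the reads in pruned roots, with 36.0 ± 0.0599% in pruned roots and 34.7 ± 0.439% in intact roots. The 1923 other genes with a mean of at least 100 RPM held less, as the members did, with 39.4 ± 0.129% in pruned roots and 40.2 ± 0.143% in intact roots (SD, n = 3 each).

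**Figure D1:**
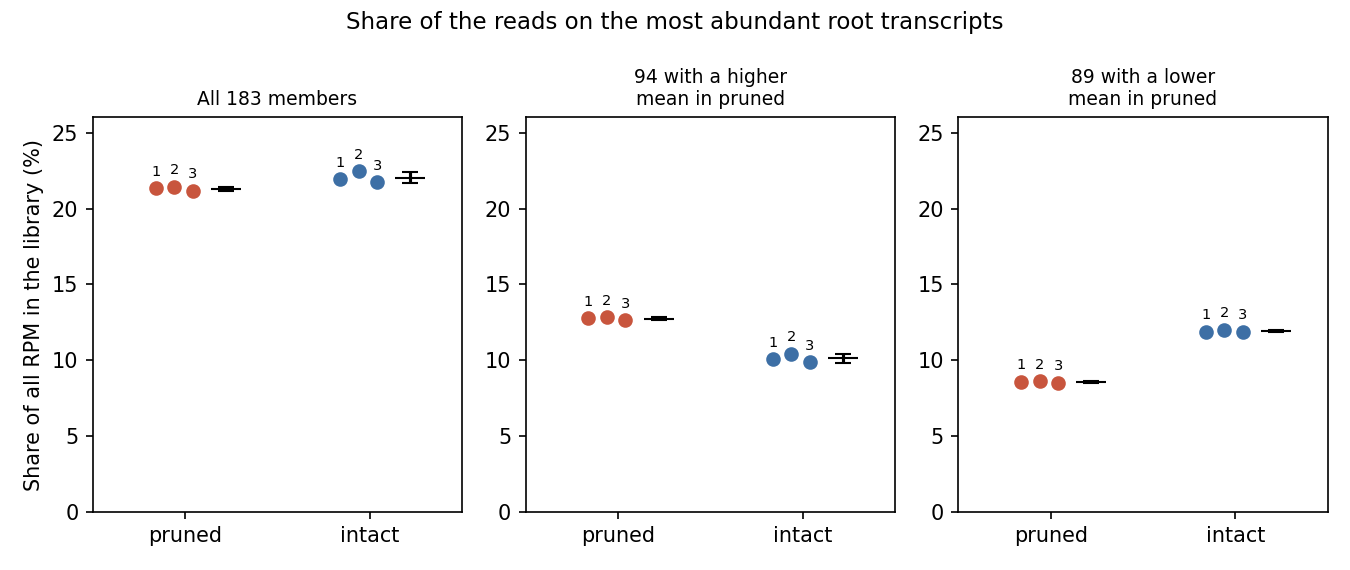
Share of all RPM (percent, y axis) held in each library by all 183 members, by the 94 with a higher mean in pruned roots and by the 89 with a lower mean, with pruned libraries left of intact libraries. Points are libraries numbered by replicate, and bars are the mean ± SD of 3 libraries: the whole set differs by less than 1 point, with 21.3% in pruned roots and 22.0% in intact roots, while its parts differ by 2.61 and -3.35 points.

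The largest single fall made up 9.37% of the sum of falls, and the largest single rise 10.0% of the sum of rises. Beyond the first gene, the falls were spread over fewer genes. The 4 largest falls in mean RPM made up 35.1% of the sum of falls, and the 4 largest rises made up 26.8% of the sum of rises. It took 9 genes to reach 50% of the falls and 12 genes to reach 50% of the rises. The 4 genes with the largest falls, Bradi1g69530, Bradi2g58050, Bradi3g14120 and Bradi1g51540, were also ranks 2 to 5 of intact roots. Together they held 0.995 ± 0.0149% of the reads in pruned roots and 2.17 ± 0.0251% in intact roots (SD, n = 3 each), a difference of -1.17 points. Without the 2 largest falls the share difference shrank to -0.114 points, and without the 3 largest it was 0.172 points. Without all 4, the remaining 179 members held 20.3 ± 0.138% in pruned roots and 19.9 ± 0.385% in intact roots, and the libraries of the groups overlapped. The sign of the difference thus changed once the 3 largest falls were left out. Leaving out the 4 largest rises in place of the falls widened the difference to -1.43 points, and leaving out the 8 largest of each direction brought it to -0.150 points for 167 members.

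Bradi1g69530 had 1857, 1885 and 1861 RPM in pruned roots, against 4955, 5012 and 5045 RPM in intact roots. All 3 pruned libraries lay far below all 3 intact libraries, with little spread in either group. The log2 fold change was -1.42 ± 0.04 (SE, limma adjusted p = 6.67e-18), and the gene was at rank 24 in pruned roots, against rank 5 in intact roots. Bradi2g58050 had 2413, 2475 and 2383 RPM in pruned roots, against 5387, 5575 and 5525 RPM in intact roots. It was lower in every pruned library by more than 2-fold (log2 fold change -1.18 ± 0.05, limma adjusted p = 3.98e-16). Bradi3g14120 had 2970, 3026 and 3121 RPM in pruned roots, against 5883, 5593 and 6213 RPM in intact roots. It was the most abundant gene of intact replicate 3, and its fall was just under 2-fold (log2 fold change -0.95 ± 0.05, limma adjusted p = 1.27e-13). Bradi1g51540 had 2542, 2656 and 2671 RPM in pruned roots, against 5327, 5358 and 5198 RPM in intact roots. Its fall was just over 2-fold, with no overlap between the groups (log2 fold change -1.01 ± 0.05, limma adjusted p = 9.51e-15). The size of this fall depended on the scaling, since quantile normalization gave -0.79. Known functions of these 4 identifiers were not given in the sources used here.

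The next 4 falls were all over 2-fold. Bradi1g11920 had 1307, 1317 and 1270 RPM in pruned roots, against 2661, 2770 and 2821 RPM in intact roots. Bradi1g69320 had 1107, 972 and 952 RPM in pruned roots, against 2182, 2369 and 2204 RPM in intact roots. Every pruned library was below every intact library for both genes, and pruned replicate 1 was the highest of the pruned libraries for Bradi1g69320. Bradi3g09210 had 1040, 1080 and 1044 RPM in pruned roots, against 2295, 2264 and 2325 RPM in intact roots. Bradi4g43610 had 639, 584 and 566 RPM in pruned roots, against 1622, 1598 and 1684 RPM in intact roots. The log2 fold changes of these 4 genes lay between -1.08 and -1.46, and the 8 largest falls together made up 49.9% of the sum of falls.

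**Figure D2:**
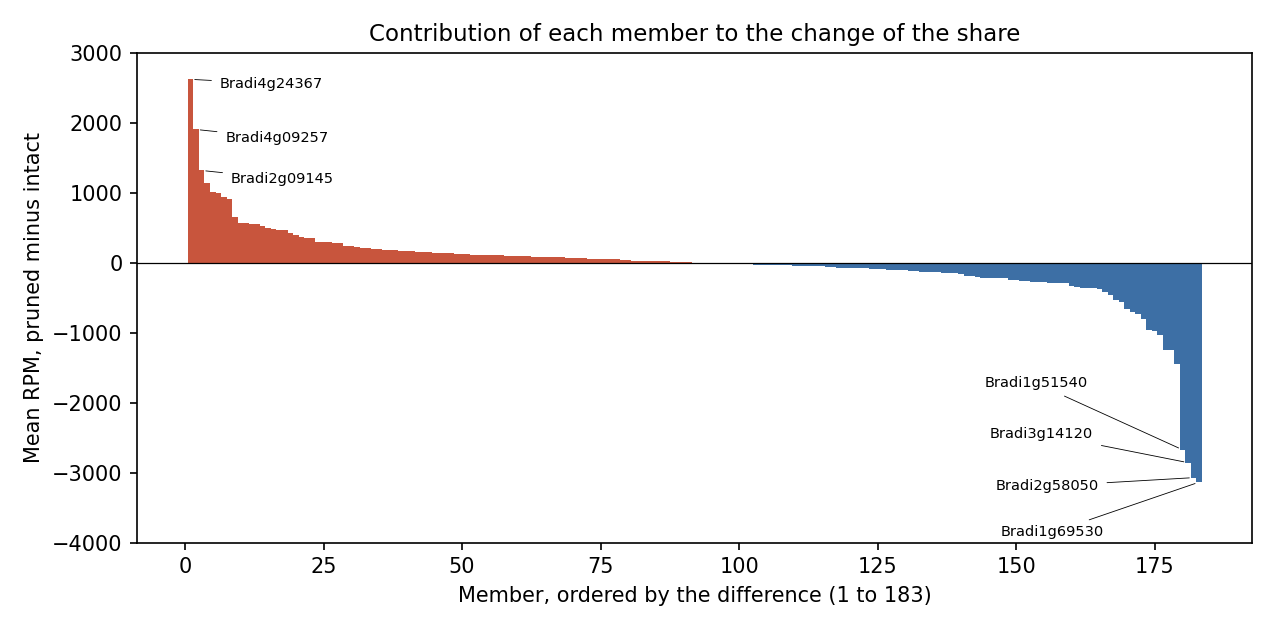
Difference of mean RPM, pruned minus intact (y axis), for each of the 183 members ordered from the largest rise to the largest fall (x axis), in red above 0 and in blue below 0. The 4 genes at the far right stand out with differences of -3136 to -2672 RPM, and the largest gain at the left is that of Bradi4g24367, with 2624 RPM.

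The largest gain in reads belonged to Bradi4g24367, the only member that rose by at least 2-fold. It had 5184, 5296 and 5038 RPM in pruned roots, against 2478, 2603 and 2566 RPM in intact roots. The pruned libraries all lay above the intact libraries (log2 fold change 1.02 ± 0.05, limma adjusted p = 9.26e-15), and the gene was at rank 2 in every pruned library, against ranks 11 to 13 in intact roots. Since the value lies at the 2-fold line, settings decide whether it counts as 2-fold, with a range of 0.97 to 1.13. Bradi4g09257, the most abundant member, was at rank 1 by mean RPM in both groups. It had 8486, 8413 and 8372 RPM in pruned roots, against 6356, 7358 and 5837 RPM in intact roots. The intact libraries were far more spread than the pruned ones, with an SD of 57.6 RPM in pruned roots and 773 RPM in intact roots. The log2 fold change was 0.38 ± 0.06 (limma adjusted p = 2.69e-05), and the call was lost with quantile normalization, at 0.15 and a limma adjusted p of 0.114. That setting gives the highest gene of every library the same value, and Bradi4g09257 was the highest in all but intact replicate 3. Quantile normalization could therefore hardly show a change of this gene.

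Bradi2g09145, which the study places among genes of the responses to hormone, lipid and alcohol, had 3835, 3081 and 3073 RPM in pruned roots, against 1889, 2224 and 1914 RPM in intact roots. Pruned replicate 1, the paired-end library of the pruned group, was 1.25 times the mean of the other two, and the groups still did not overlap. The log2 fold change was 0.72 ± 0.07 (limma adjusted p = 7.34e-09), 0.94 with read layout as a term and 0.62 without pruned replicate 1. Bradi5g14640 had 4091, 4257 and 3990 RPM in pruned roots, against 2981, 2953 and 2979 RPM in intact roots. All 3 intact libraries were nearly equal, and all 3 pruned libraries lay above them (log2 fold change 0.47 ± 0.05, limma adjusted p = 1.03e-08).

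The other members of the 8 largest gains were Bradi3g17640, Bradi1g12787, Bradi3g17500 and Bradi4g08800. Bradi3g17640 had 2767, 2762 and 2790 RPM in pruned roots, against 1768, 1801 and 1693 RPM in intact roots. Bradi1g12787 had 2934, 3223 and 3077 RPM in pruned roots, against 2152, 2092 and 1994 RPM in intact roots. Both rose in all pruned libraries without overlap, by 0.66 and 0.57 on the log2 scale. Bradi3g17500 had 2298, 2206 and 2156 RPM in pruned roots, against 1259, 1403 and 1177 RPM in intact roots. Bradi4g08800 had 3187, 3431 and 3390 RPM in pruned roots, against 2374, 2560 and 2342 RPM in intact roots. The rise of Bradi3g17500 was 0.80 on the log2 scale, the largest after Bradi4g24367, and that of Bradi4g08800 was 0.46.

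Among the 10 members of highest mean RPM, 2 remain. Bradi4g08500 had 3667, 3827 and 3754 RPM in pruned roots, against 3083, 3333 and 3117 RPM in intact roots, a modest rise without overlap (log2 fold change 0.24 ± 0.05, limma adjusted p = 0.000198). Bradi3g01990 had 3036, 2967 and 2910 RPM in pruned roots, against 2783, 2914 and 2925 RPM in intact roots. Its groups overlapped and its difference did not pass the test (log2 fold change 0.05 ± 0.05, limma adjusted p = 0.403). It was at rank 9 in pruned roots and rank 8 in intact roots.

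**Figure D3:**
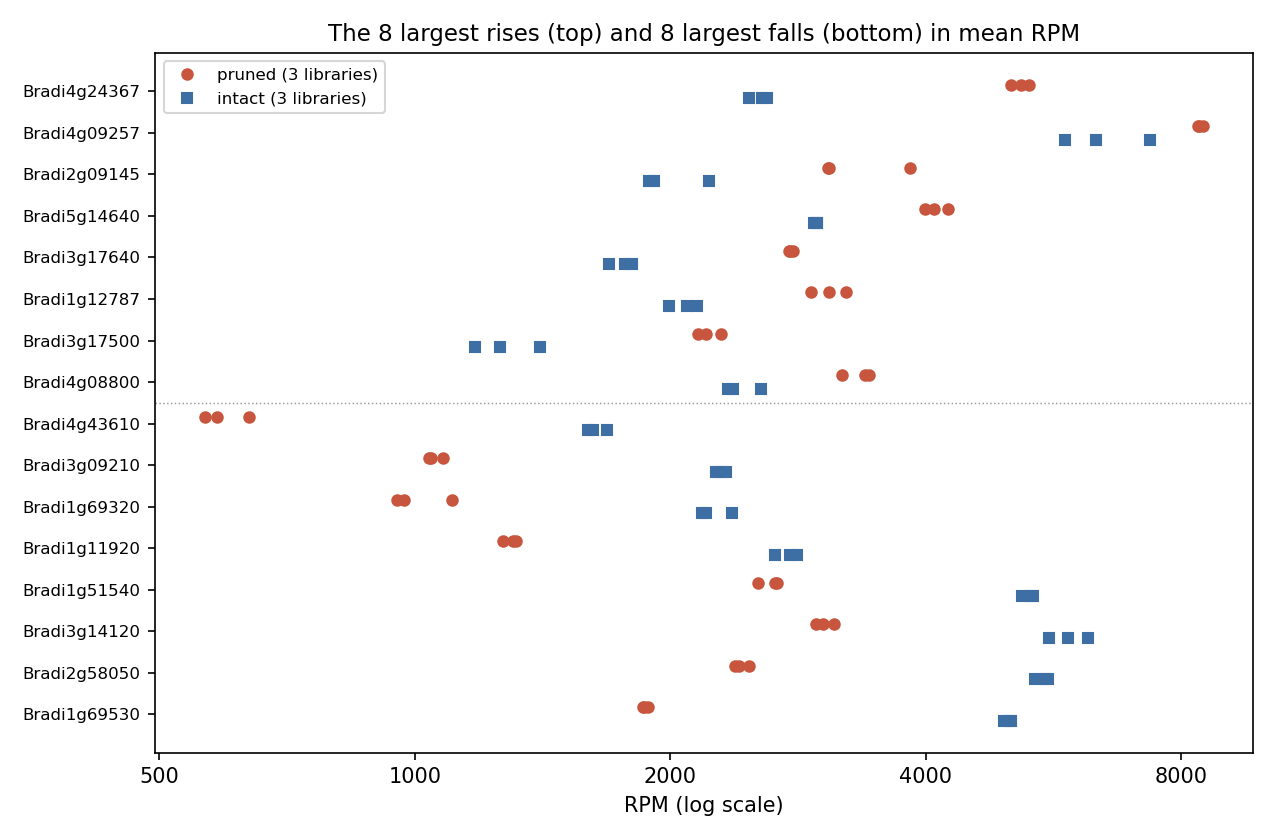
RPM in each library (log axis) for the 8 members with the largest rises in mean RPM, above the dotted line, and the 8 with the largest falls, below it. Circles are the 3 pruned libraries and squares the 3 intact libraries: the groups are apart for all 16 genes. The largest fall is that of Bradi1g69530, with means of 1868 RPM in pruned roots and 5004 RPM in intact roots. The largest rise is that of Bradi4g24367, with 5173 RPM in pruned roots and 2549 RPM in intact roots.

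Over all members, most differences were small but larger than the spread between libraries. With limma on log2(RPM + 0.5), 137 of 183 members (74.9%) had an adjusted p of at most 0.05, of which 71 were higher and 66 lower in pruned roots. Among all genes 50.3% were called, 30.1% higher and 20.2% lower. For members the more frequent direction depended on the scaling, and for all genes the size of the excess of higher calls did. The share of calls was close to that of the 1923 other genes with a mean of at least 100 RPM, of which 73.1% were called. In genes of 10 to 100 RPM it was 55.5%, and in genes under 10 RPM 36.7%, so genes of a higher level were called more often across the table. The RPM of the 2 groups did not overlap for 140 members, 72 higher and 68 lower in pruned roots, where 56% of all genes, 33.4% higher and 22.7% lower, did not overlap.

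Large changes were few, among the members as in the whole table. Of the members, 10 (5.46%) were DEGs with at least 2-fold change, 1 higher and 9 lower in pruned roots. Among all genes 4.26% were, 2.54% higher and 1.72% lower, and 5.41% of the 1923 other genes with a mean of at least 100 RPM. The rule bears on the count of members. A gene with under 1000 RPM in its higher group could not differ by 2-fold and still reach 500 RPM in the other group. The 9 DEGs that fell were Bradi1g65440, Bradi4g43610, Bradi1g69530, Bradi2g58050, Bradi1g69320, Bradi3g09210, Bradi1g11920, Bradi1g51540 and Bradi3g23160. The last was outside the rule for named genes, and had 771, 799 and 780 RPM in pruned roots, against 1585, 1597 and 1569 RPM in intact roots. The 10 DEGs held 1.74 ± 0.0251% of the reads in pruned roots and 3.04 ± 0.0316% in intact roots, and the other 173 members 19.6 ± 0.111% in pruned roots and 19.0 ± 0.351% in intact roots (SD, n = 3 each).

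The median log2 fold change was 0.0048 over the members and 0.042 over all genes, and members ranged from -1.46 to 1.02. The 71 members called higher had a median of 0.32 and the 66 called lower a median of -0.35. The 46 members that were not called lay between -0.12 and 0.12, and together held 4.32 ± 0.0356% of the reads in pruned roots and 4.32 ± 0.0706% in intact roots (SD, n = 3 each). Among the 21 members with a mean of at least 2000 RPM, 10 were called higher and 8 lower, and their share was 6.30 ± 0.06% in pruned roots and 6.68 ± 0.11% in intact roots. Among the 53 members of 1000 to 2000 RPM, 21 were called higher and 26 lower, with a share of 7.09 ± 0.0635% in pruned roots and 7.52 ± 0.133% in intact roots. The 109 members with a mean under 1000 RPM counted 40 higher and 32 lower, and their share, 7.92 ± 0.0258% in pruned roots and 7.83 ± 0.13% in intact roots, overlapped between the groups. The share was thus lower in pruned roots only among members with a mean above 1000 RPM.

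The order of the most abundant genes was reshuffled at the very top. The highest gene of each library took more of the reads in pruned roots, with a mean of 0.842% against 0.664% in intact roots. It was Bradi4g09257 in every library but intact replicate 3, where it was Bradi3g14120. The 10 highest genes of each library took less, with 4.02%, 4.03% and 3.95% in the pruned libraries, against 4.23%, 4.35% and 4.25% in the intact libraries. The same held for the 50 highest genes, with 11.1% in pruned roots and 11.6% in intact roots, and for the 100 highest, with 16.1% in pruned roots and 16.8% in intact roots. Of the 10 genes with the highest mean RPM in each group, 5 were shared. The 5 found only in pruned roots were Bradi4g24367, Bradi4g08800, Bradi2g09145, Bradi1g12787 and Bradi3g17640, and each of them rose. The 5 found only in intact roots were Bradi2g58050, Bradi1g51540, Bradi1g69530, Bradi1g11920 and Bradi5g24690, and each of them fell. Bradi5g24690 was named after its values were seen, and had 1841, 1823 and 1820 RPM in pruned roots, against 2868, 2682 and 2849 RPM in intact roots. Below the top the sets were more alike, with 39 of the 50 highest, 77 of the 100 highest and 146 of the 183 highest genes shared.

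Among all genes, 95 members gained rank in pruned roots, 83 lost rank and 5 stayed. The median change was 21 places, whereas the rank of a member ranged over a median of 7 places among the 3 pruned libraries and 10 places among the 3 intact libraries. For 138 members the ranks in the 2 groups did not overlap. This count and that of large moves were made for members only, so no share over all genes stands beside them. In RPM, 76.5% of the members and 56% of all genes did not overlap. Moves of over 50 places were seen for 40 members, of which 17 gained and 23 lost. Spearman's rho over the 183 members was 0.766 to 0.804 between a pruned and an intact library, 0.989 to 0.997 between 2 pruned libraries and 0.976 to 0.991 between 2 intact libraries. These are correlations across genes, which are not independent replicates, and carry no test.

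The largest gain was 134 places, by Bradi1g74560, which was at rank 91 in pruned roots and rank 225 in intact roots. It had 897, 883 and 851 RPM in pruned roots, against 524, 503 and 530 RPM in intact roots (log2 fold change 0.76 ± 0.04, limma adjusted p = 4.81e-13). The other large gains were those of Bradi3g01470, Bradi1g18050, Bradi1g25837 and Bradi3g10120. Bradi3g01470 had 853, 859 and 853 RPM in pruned roots, against 551, 532 and 574 RPM in intact roots. Bradi1g18050 had 800, 767 and 772 RPM in pruned roots, against 508, 561 and 534 RPM in intact roots. Neither gene overlapped between the groups, and both lay not far above the 500 RPM line in intact roots. Bradi1g25837, listed by the study under RNA transport, had 1145, 1153 and 1170 RPM in pruned roots, against 696, 752 and 631 RPM in intact roots. Bradi3g10120, listed under response to hormone, had 1243, 1152 and 1161 RPM in pruned roots, against 701, 758 and 676 RPM in intact roots. Both rose by 0.74 on the log2 scale and stood at ranks 56 and 52 in pruned roots, against 144 and 139 in intact roots.

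The largest loss of rank was that of Bradi1g65440, which dropped by 163 places and was at rank 206 in pruned roots and rank 43 in intact roots. It had 554, 535 and 535 RPM in pruned roots, against 1508, 1463 and 1515 RPM in intact roots. This was also the largest fall of any member on the log2 scale (-1.46 ± 0.04, limma adjusted p = 1.32e-18), and it left the gene barely above the level that the rule asks for. Bradi4g43610 was at rank 175 in pruned roots and rank 38 in intact roots, with a log2 fold change of -1.46 ± 0.05 (limma adjusted p = 1.26e-17). Bradi1g25860, listed under response to stress and protein dimerization activity, had 504, 515 and 502 RPM in pruned roots, against 787, 777 and 831 RPM in intact roots. Bradi4g01200, listed under cysteine and methionine metabolism, had 582, 505 and 517 RPM in pruned roots, against 822, 729 and 883 RPM in intact roots. Both fell without overlap, by 0.65 and 0.60 on the log2 scale, and Bradi4g01200 was the more spread of them in either group. Bradi2g53340 had 593, 630 and 616 RPM in pruned roots, against 1107, 1067 and 1056 RPM in intact roots, and was at rank 165 in pruned roots and rank 69 in intact roots.

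**Figure D4:**
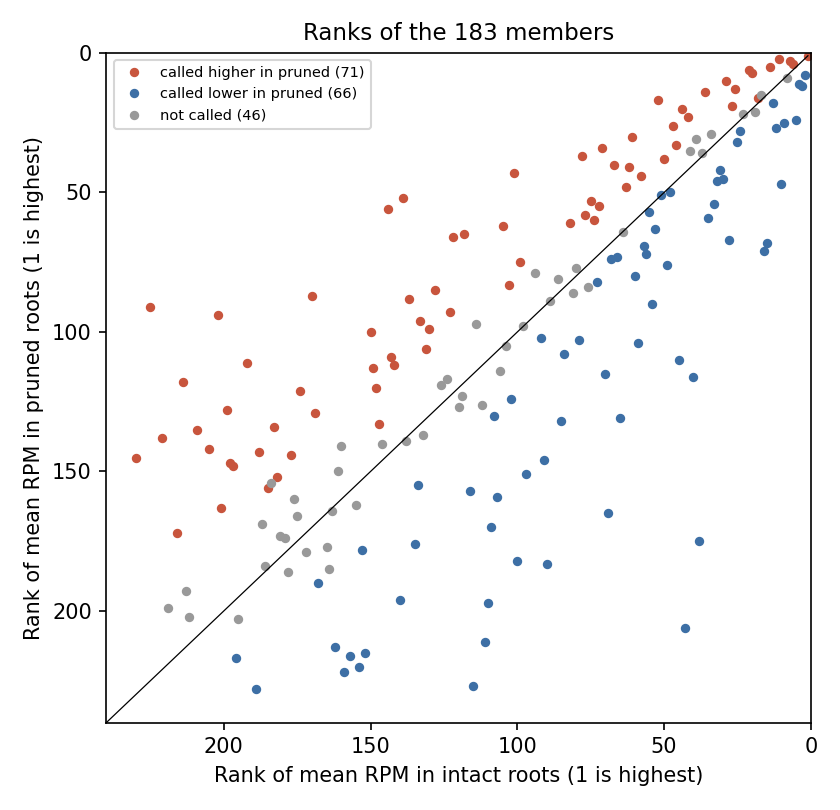
Rank of mean RPM among all genes in pruned roots (y axis) against the rank in intact roots (x axis), with rank 1 at the top right, for the 183 members. Colours give the limma call (71 higher, 66 lower, 46 not called in pruned roots), the line marks equal rank, and the largest loss and the largest gain of rank are those of Bradi1g65440, at rank 206 in pruned roots and 43 in intact roots, and Bradi1g74560, at rank 91 in pruned roots and 225 in intact roots.

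An annotation of the study was at hand for 9 members, under gene ontology terms or pathway headings. The study chose these lists from DEGs of the same libraries, so they are no independent evidence of a direction. By role, 4 of the 9 are listed under the metabolism of sugar or carbon, and all 4 fell. Bradi1g46670 is listed under sucrose synthase activity, the enzyme that splits the sucrose arriving in a sink tissue. It had 1109, 1150 and 1116 RPM in pruned roots, against 1731, 1622 and 1687 RPM in intact roots (log2 fold change -0.58 ± 0.04, limma adjusted p = 1.02e-10). Of the 5 genes of that list, 4 fell and 1 rose. Bradi1g46670 took most of their reads, 77.3% of the summed RPM in pruned roots and 74.5% in intact roots, not corrected for length.

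Bradi2g53340 is listed under phosphoglycerate mutase activity, a step of glycolysis, and fell by 0.81 on the log2 scale (limma adjusted p = 1.37e-13). Both genes of that list fell, and Bradi2g53340 held 97.3% of their summed RPM in pruned roots and 97.6% in intact roots. Bradi1g65440, described above, is listed under glycolysis and gluconeogenesis and under magnesium ion binding. Of the 10 genes of the magnesium list 9 fell and 1 rose, and the part of Bradi1g65440 in their summed RPM was 27.4% in pruned roots and 35.9% in intact roots. Bradi2g59370 is listed under carbon metabolism, amino acid synthesis and the shikimate pathway, which leads to aromatic amino acids and phenolic compounds. The gene is also listed under pyridine nucleotide metabolism, where all 9 listed genes fell. It is further listed under cofactor metabolism, where 5 genes rose and 12 fell. It had 835, 839 and 806 RPM in pruned roots, against 1233, 1222 and 1278 RPM in intact roots (log2 fold change -0.59 ± 0.04, limma adjusted p = 4.30e-11), and both genes of the shikimate list fell. The remaining 5 annotated members were Bradi1g25860 and Bradi4g01200, which fell, and Bradi2g09145, Bradi3g10120 and Bradi1g25837, which rose. The other 174 members were not found in the lists at hand, among them all 10 members of highest mean RPM. No role is given to them here. Some lists, such as response to hormone with 28 genes, were not printed whole, so a term of a member can have been missed.

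The chromosome number in the identifier placed 68 members on chromosome 1, 35 on chromosome 2, 48 on chromosome 3, 25 on chromosome 4 and 7 on chromosome 5. Chromosome 1 held 37.2% of the members and 29.6% of the genes in the table, and chromosome 5 held 3.83% of the members and 9.32% of the genes. The members of chromosome 4 gained in sum, with 4.46 ± 0.0475% of the reads in pruned roots and 3.83 ± 0.0894% in intact roots, and Bradi4g24367 and Bradi4g09257 are among them. Those of chromosome 1 lost in sum, with 6.69 ± 0.0448% of the reads in pruned roots and 7.39 ± 0.103% in intact roots (SD, n = 3 each). In the list of identifiers, Bradi1g11920 and Bradi1g11930 were direct neighbours and both fell, by 1.08 and 0.86 on the log2 scale. Bradi3g49230, Bradi3g49250 and Bradi3g49260 lay close together and fell by 0.34, 0.28 and 0.21. Whether such neighbours are near-identical copies that share reads was not tested.

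The members were tightly measured, and, like other genes, more tightly in pruned roots. The median coefficient of variation was 2.32% over the pruned libraries and 3.84% over the intact libraries. Over all genes it was 5.48% in pruned roots and 6.76% in intact roots. For the 1923 other genes with a mean of at least 100 RPM it was 2.66% in pruned roots and 3.88% in intact roots. The coefficient was higher in intact roots for 123 of 183 members. That count and the counts by replicate below were made for members only. The spread in intact roots had a pattern, since 104 members were highest in intact replicate 2, 96 were lowest in intact replicate 3 and 80 were both. This bears on the share, for which intact replicate 2 was the highest and intact replicate 3 the lowest intact library. In pruned roots, 10 members differed by over 10% between replicate 1, the paired-end library, and the mean of the other two, all of them higher in replicate 1. The largest such ratio was 1.27, and Bradi2g09145, Bradi1g69320, Bradi4g01200 and Bradi4g43610 were among the 10. With pruned replicate 1 as the only pruned library, so that all libraries were paired-end, the share difference was -0.738 points for 184 genes.

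The threshold itself decided part of the picture. Just inside it were Bradi3g43560, with 504, 500 and 508 RPM in pruned roots and 590, 594 and 543 RPM in intact roots, and Bradi3g49230, with 500, 522 and 515 RPM in pruned roots and 632, 639 and 672 RPM in intact roots. The third was Bradi1g25860, whose lowest value was 502 RPM. Just outside were Bradi4g30710 and Bradi5g11920, with lowest values of 499.9 and 497.9 RPM, and Bradi2g44856, with 945, 973 and 958 RPM in pruned roots, against 495, 526 and 512 RPM in intact roots. These 3 genes are among 38 that reached 500 RPM in all 3 pruned libraries but not in all 3 intact libraries, and 41 genes did the reverse. By this choice the 38 genes had more of the reads in pruned roots, 2.52% against 1.55% in intact roots, and the 41 genes had less, 1.60% against 2.85% in intact roots.

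The share difference therefore depended on which libraries chose the genes. The 224 genes of at least 500 RPM in the 3 intact libraries differed by -1.99 points, and the 221 genes of at least 500 RPM in the 3 pruned libraries by 0.233 points. Choosing genes in replicate 1 of both groups and measuring them in replicates 2 and 3 gave -0.767 points for 189 genes, and the converse gave -0.715 points, also for 189 genes. The value was nearly the same in libraries that had no part in the choice, as long as both groups chose. Replicates of a group ranked the members nearly alike, with a Spearman's rho of at least 0.976. Such a split could therefore change the choice little, and it is no independent test of the difference.

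**Figure D5:**
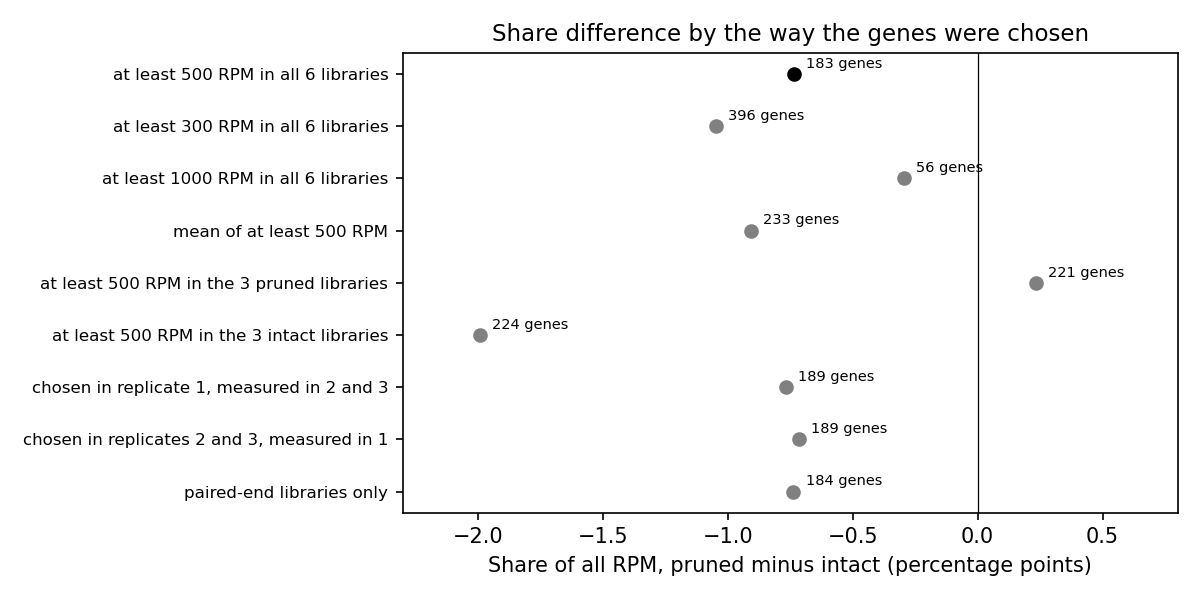
Share of all RPM, pruned minus intact (percentage points, x axis), for genes chosen in 9 ways (rows), with the number of genes beside each point and the choice used here in black. The difference is below 0 for all choices drawn except that of genes high in the 3 pruned libraries, for which it is 0.233.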

How the data were processed

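Root RNA was sequenced as 3 biological replicates of pruned and 3 of intact plants with reads of 150 nt. The authors trimmed the reads, mapped them with Tophat to the genome from phytozome and counted uniquely mapped reads. The submitters' processing notes also name HTSeq. A strand setting and a gene annotation version were not given in the sources used here. The deposited table gives RPM of 19538 genes for the 6 libraries, each matched by its title. RPM sum to 1000000 per library, and every value was a whole multiple of 1 read within 0.01, which gave the counts of reads. The step could be read directly from the lowest values of 4 libraries, while pruned replicates 2 and 3 had no gene with a single read.

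Pruned and intact roots were compared over all 19538 genes with limma 3.58.1 in R 4.3.3 (eBayes with trend) on log2(RPM + 0.5), two-sided, with Benjamini-Hochberg adjustment. Fold changes are pruned over intact on that scale. Genes were called at an adjusted p up to 0.05, and DEGs also had at least 2-fold change. Filters on low values (0.5 or 1 RPM in 3 libraries) removed no gene. Shares are sums of RPM, and ranks are by mean RPM over all genes. An exact permutation test of 3 against 3 cannot go below 0.1, and no such test was used. The members, lists and tests were chosen with earlier results of these data known. Named members are the 10 of highest mean RPM, the 8 largest rises and 8 largest falls in RPM, the 5 largest rises and falls in fold change among called members without overlap, the 5 largest gains and losses of rank, and the 3 on either side of the threshold. Members named for an annotation of the study or for their neighbouring identifiers were added after their values were seen.

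Alternatives were pseudocounts of 0.1 and 1, other filters, scaling by median ratios, quantile normalization, no trend in limma, edgeR 4.0.16 (quasi-likelihood with TMM, and exact test) and DESeq2 1.42.0 on the recovered reads, the replicate number or the read layout as a term, a 1.5-fold threshold, other choices of the members and each library left out. The tests were tried on simulated data in which far fewer genes changed than were called here. That trial is therefore no evidence for the calls. None of the 19538 identifiers matched the RefSeq gene table at hand, so functional classes, levels per length, marker genes and sequences were not analysed here. Names printed beside identifiers in the supplements were not used, because only 28.2% of 294 gene numbers printed there lay on the chromosome of the identifier. Python 3.11.15 with pandas 2.3.3 and matplotlib 3.10.9 was used for the rest.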

Additional observations from a re-analysis of the deposited data

How the results depend on the processing

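The share difference of -0.735 points was -1.05 points for the 396 genes of at least 300 RPM in all libraries, -0.30 for the 56 genes of at least 1000 RPM and -1.99 for genes chosen in the intact libraries, and it reversed to 0.23 for genes chosen in the pruned libraries. With each library left out in turn it was -0.90 to -0.53 points, lowest without pruned replicate 1 and nearest to 0 without intact replicate 2, and the members numbered 183 to 188. The median rank change of 21 places was 44 at 300 RPM and 19 to 23 with a library left out. The 1 member that rose 2-fold became 0 with median-ratio scaling, both edgeR tests and DESeq2 (Bradi4g24367 at 0.97 or above on the log2 scale in every setting). A threshold of 1.5-fold gave 11 higher and 18 lower members. This count was made for members only, so no share over all genes stands beside it. The call of Bradi4g09257 was lost with quantile normalization (0.15, limma adjusted p = 0.114), which gives the highest gene of every library the same value. The other 521 values of named members under alternatives kept their call. All kept their sign except Bradi3g01990, never called, at -0.0065 with quantile normalization. The 71 higher and 66 lower members numbered 51 to 76 and 57 to 76 over the tests and scalings. Median-ratio scaling gave 57 and 71, DESeq2 59 and 76, edgeR quasi-likelihood 59 and 72, and the edgeR exact test 51 and 67. Quantile normalization went the other way, with 76 and 59, and limma without the trend gave 57 and 57. Over all genes the main fit called 5889 higher and 3941 lower, and edgeR quasi-likelihood 5147 and 4857. Median-ratio scaling called 5103 and 4810 of all genes, DESeq2 4475 and 4125, and the edgeR exact test 4960 and 4628. Quantile normalization called 5012 and 5002 of all genes, and limma without the trend 5414 and 3504. The members' median of 0.0048 became -0.042 in the edgeR quasi-likelihood test and 0.035 after quantile normalization. With a library left out, 67 to 72 members were higher and 60 to 69 lower, where 2-fold falls numbered 8 to 9 and rises 1. The 9 falls of 2-fold became 6 with quantile normalization and 10 with median-ratio scaling, both edgeR tests and DESeq2. Of the 137 calls, 114 to 137 were kept with the same sign under each alternative, and 1 took the other sign with quantile normalization. Each box held plants of both groups, but the labels do not say that a replicate number marks a box. Deviations from the group mean correlated by -0.026, 0.20 and 0.084 between libraries of the same number. Between libraries of different numbers they correlated by -0.21 to 0.12, so pairing was neither shown nor excluded. With the replicate block 71 members were higher and 67 lower, and the share difference was -0.735. Levels per length and functional classes could not be run. Depth limited no member. A layout term leaves pruned replicate 1 as the only pruned library behind the difference.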

Other observations

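Among the genes that reached 500 RPM in all libraries of 1 group only, some differences were larger than any among the 183 members. The members had to keep 500 RPM in both groups, which limits how far they can differ. These genes were named after their values were seen. Bradi4g07570 had 1516, 1536 and 1473 RPM in pruned roots, against 187, 182 and 188 RPM in intact roots, with a log2 fold change of 3.02. Bradi4g22620 had 493, 504 and 514 RPM in pruned roots, against 2104, 1984 and 1895 RPM in intact roots, and missed the level in 1 pruned library only. The neighbouring identifier Bradi4g22630 had 260, 271 and 278 RPM in pruned roots, against 1001, 952 and 898 RPM in intact roots. Of the 38 genes that reached the level in pruned roots only, 7 rose at least 2-fold. Of the 41 genes that reached it in intact roots only, 11 fell at least 2-fold. The choice itself favours these directions, so the counts are a description. Over all genes, 2.54% were DEGs of at least 2-fold higher in pruned roots and 1.72% lower.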
